A study of Mus musculus with 9 samples.

Results

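The genes described here were picked as genes of motile cilia, the beating hairs carried by the ependymal cells that line the brain's ventricles. Members were chosen from their symbols alone: Foxj1, Ccdc153 and Tmem212, and the genes Tekt1, Tekt2, Spag6, Spag6l, Spag16 and Spag17 and every gene in the authors' table whose symbol is Dnah, Dnai, Dnali, Cfap, Rsph or Drc followed by a digit. The rule found 61 genes of the 14351 in the table, 53 of them with a listed role. All 61 are called ciliary genes below, the 8 without a listed role included. The Dnai prefix matched 0 genes, because the table names dynein intermediate chains Dnaic1 and Dnaic2, and these were not members. RNA was sequenced from the hypothalamus of 5 male Clic1 knockout (KO) and 4 male wild-type (WT) mice, 1 library per mouse, to ask which hypothalamic genes differ when Clic1, a chloride intracellular channel gene, is deleted. The study describes a whole-body deletion on a CD-1 background, WT littermates as controls and normal chow for both groups. The sample labels give the strain C57b/6J instead and carry a protocol for perigonadal adipose tissue, and the age of these mice is not given in the sources used here. KO replicate 10 is called WT in its title and treatment label but K10 in its description and in the table, and it was placed with the KO mice, so the main values are given with and without it.

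Motile cilia share a skeleton, the axoneme, in which outer doublet microtubules surround a central pair. Dynein arms, motors whose force-producing parts are the heavy chains, walk along the neighbouring doublet and bend the cilium. Radial spokes, the central apparatus and the nexin-dynein regulatory complex act on the dyneins, and tektins and other proteins hold the doublets together. In the brain, ependymal cells of the ventricle walls carry tufts of such cilia and move cerebrospinal fluid, with Foxj1 as the transcription factor that switches on much of the programme and RFX factors as its partners. These cells are a small share of hypothalamic tissue. In bulk RNA, fewer cells of a type and less RNA per cell cannot be told apart.

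Clic1 itself was between 0.733 and 1.93 normalized counts per 1 M reads (CPM) in the KO libraries and between 3.58 and 5.52 CPM in the WT libraries, with no overlap. KO replicate 10 was at 1.43 CPM. The hypothalamic neuropeptide genes Pmch, Avp and Hcrt were each above 30 CPM in every library, the lowest values being 199, 96.0 and 34.9 CPM. Oxt and Pomc were lower, with lowest values of 19.9 and 16.7 CPM. The adipocyte genes Adipoq, Plin1, Lep and Cfd are not among the genes of the table, while Lipe, another gene of adipocytes, was at 13.9 to 19.0 CPM. Steps between low CPM values gave estimated depths of 5.47 to 20.8 M reads for the KO libraries (median 7.55 M) and 7.28 to 10.98 M for the WT libraries (median 9.80 M). The deepest was KO replicate 10.

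Promoter sequences were read from RefSeq (GRCm38.p6) for 53 of the 61 genes. Those of Foxj1, Rsph1, Rsph4a, Cfap54, Cfap65, Cfap73, Cfap97 and Dnah3 were not among them. Within the 250 bases before the start, GTTGCC or its reverse complement GGCAAC, the letters of an arm of the X-box that RFX factors bind, was found in 17 of the 53 promoters (32.1%). The same letters were in 11.8% of the 27025 promoters of all genes and in 12.7% of the 11225 promoters of genes in the table. The forkhead core TGTTTA, on either strand, was in 9 of the 53 promoters (17%), against 13.5% of all promoters and 9.35% of those of genes in the table. A match is a description of letters and no measurement of binding.

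The windows below are those of genes that the results turn on, 5′ to 3′ on the strand of the gene, with GTTGCC and GGCAAC in capitals. Tekt1 and Tekt2 are shown because both carry more than 1 match and behaved differently across the libraries, Ccdc153 as the ependymal marker, and Cfap44 and Drc1 as axoneme genes with a match close to the start.
Ccdc153, chr9:44240498-44240557, plus strand: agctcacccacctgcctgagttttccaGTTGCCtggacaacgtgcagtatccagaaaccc
Tekt1, chr11:72361885-72361944, minus strand: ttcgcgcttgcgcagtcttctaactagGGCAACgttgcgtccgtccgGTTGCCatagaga
Tekt2, chr4:126325752-126325811, minus strand: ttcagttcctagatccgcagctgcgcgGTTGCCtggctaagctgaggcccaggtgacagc
Tekt2, chr4:126325678-126325737, minus strand: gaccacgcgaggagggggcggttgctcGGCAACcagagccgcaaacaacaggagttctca
Cfap44, chr16:44394753-44394798, plus strand: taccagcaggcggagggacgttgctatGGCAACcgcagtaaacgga
Drc1, chr5:30281355-30281392, plus strand: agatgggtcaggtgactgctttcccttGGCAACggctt

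The 3 Dnah7 genes lie on chromosome 1 and are near-identical copies in their transcripts, and their windows are shown for comparison. Each holds GTTGCC.
Dnah7a, chr1:53706952-53707011, minus strand: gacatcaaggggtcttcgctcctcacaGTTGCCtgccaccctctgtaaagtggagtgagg
Dnah7b, chr1:46066663-46066722, plus strand: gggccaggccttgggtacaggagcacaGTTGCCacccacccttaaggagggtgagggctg
Dnah7c, chr1:46425272-46425331, plus strand: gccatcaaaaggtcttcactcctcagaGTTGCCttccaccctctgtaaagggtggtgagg

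Every one of the 61 genes had a position in the GENCODE annotation of GRCm38, spread over 18 chromosomes. Of these, 5 are on chromosome 17 with Clic1, at distances of 3.79 Mb (Rsph1), 4.43 Mb (Dnah8), 11.1 Mb (Rsph9), 27.1 Mb (Rsph3a) and 28.1 Mb (Rsph3b).

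The ciliary genes were expressed at low levels. Their mean over the 9 libraries ran from 1.03 to 82.5 CPM with a median of 10.6 CPM, against a median of 28.1 CPM over all genes. Levels of different genes were compared per kilobase of the longest transcript, which ran from 0.716 kb (Tmem212) to 16.7 kb for a dynein heavy chain. On that scale the members ran from 0.256 CPM per kb (Dnah17) to 38.4 CPM per kb (Cfap36), with a median of 2.83 against 9.18 CPM per kb over all genes. The 2 highest, Cfap36 and Cfap410 (23.5 CPM per kb), are genes taken in by their symbol that have no axoneme role in the list used here, and the highest genes with one were Rsph1 at 15.6 and Cfap20 at 14.0 CPM per kb. Foxj1 stood at 6.88 CPM per kb and Ccdc153 at 5.01 CPM per kb. Among the 15 dynein heavy chains, the longest genes of the set, Dnah1 of the inner arms was highest at 4.61 CPM per kb, while the outer arm chains Dnah9, Dnah5, Dnah11, Dnah8 and Dnah17 stood at 2.67, 1.67, 1.57, 0.382 and 0.256 CPM per kb.

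**Figure D1:**
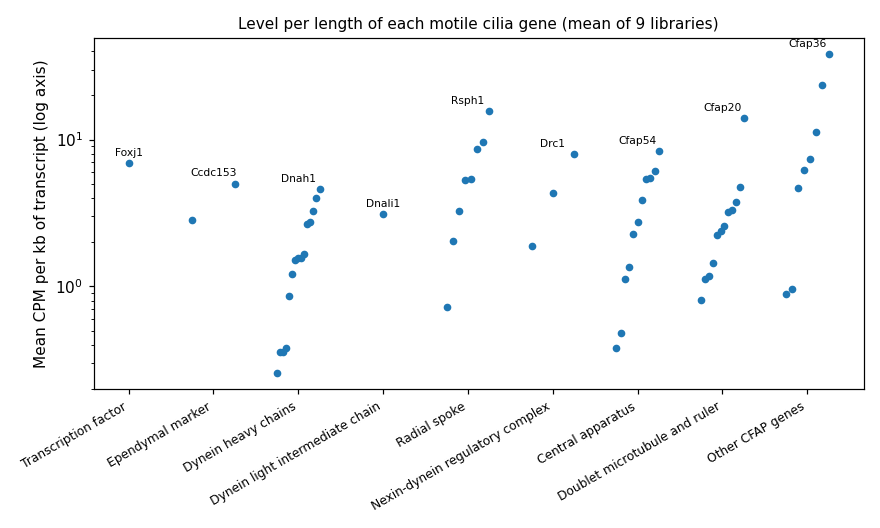
Mean level of each of the 61 genes over the 9 libraries, in CPM per kb of transcript on a log axis, grouped by role. The highest gene of each role is named, and Cfap36 at 38.4 CPM per kb is the highest of the set while Dnah17 at 0.256 CPM per kb is the lowest.

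Between KO and WT mice, the ciliary genes differed by little. With limma on log2(CPM + 0.1), adjusted over the whole table by the Benjamini-Hochberg method, 0 of the 61 genes passed an adjusted p of 0.05, against a background of 0.286% of all genes (41 genes), and the smallest adjusted p of a member was 0.634. At an unadjusted p under 0.05, limma gave 6 of the 61 (9.84%), against 6.5% of all genes. Of these, 4 had a higher mean in KO libraries (Dnah7b, Rsph1, Cfap73 and Cfap44, against 3.44% of all genes) and 2 a lower one (Tekt2 and Rsph4a, against 3.07%). Cfap73 reached 1 CPM in 4 KO and 0 WT libraries. The authors kept genes with at least 1 CPM in at least 5 samples, and the part of this filter in these counts was not tested. limma-voom on approximate reads also gave 0 members past the threshold, with 8 at an unadjusted p under 0.05 against 7.84% of all genes. In 0 of the 61 genes did the KO and WT libraries fall into ranges that did not overlap, whereas 3.41% of all genes did so.

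The median log2 difference (KO minus WT) of the 61 genes was 0.10, against 0.00089 over all genes, and 43 of the 61 estimates lay above 0 (70.5%, against 50.4% of all genes). Without KO replicate 10, the median was 0.04 and 39 estimates lay above 0, against 49.3% of all genes. With replicate 10 counted as WT, the median was 0.01. Without replicate 10, 0 of the 61 passed an adjusted p of 0.05 (0.606% of all genes did), the smallest adjusted p of a member being 0.25, and 4 had an unadjusted p under 0.05, against 10.5% of all genes. With replicate 10 as WT, 0 members passed the adjusted threshold (0.0348% of all genes did) and 2 had an unadjusted p under 0.05, against 6.65% of all genes.

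The data set bounds on these differences. For 56 of the 61 genes, the 95% interval of the difference lay within 1 on the log2 scale in both directions, and for 30 it lay within 0.5. The median distance from the estimate to the end of its interval was 0.33. Estimated reads were few for the lowest genes. Of the 61 genes, 38 had at least 30 estimated reads in every library. Another 6 (Cfap126, Cfap221, Cfap73, Cfap77, Cfap99 and Rsph14) had fewer than 10 in at least 1 library. The part of depth in the precision of these genes was not tested. Cfap221, a central apparatus gene, was down to 1 estimated read in KO replicate 6, and its interval ran from -1.52 to 0.62.

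**Figure D2:**
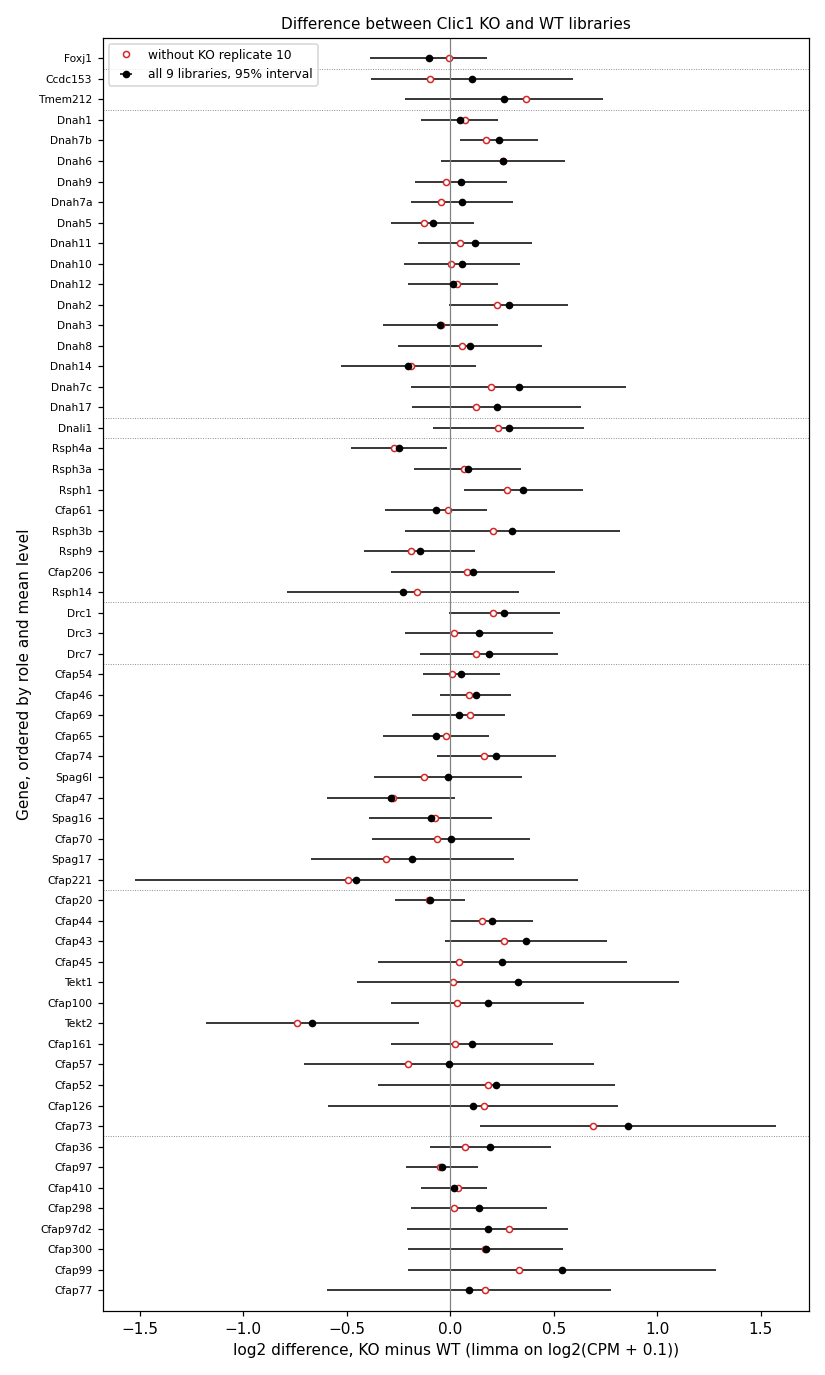
Log2 difference (KO minus WT) of each gene, ordered by role and mean level, as estimated by limma on log2(CPM + 0.1). Black points and lines are the estimates and 95% intervals from all 9 libraries, and open red points are the estimates without KO replicate 10. Most intervals cross 0, and those of Dnah7b, Rsph1, Cfap73, Cfap44, Tekt2 and Rsph4a do not.

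Foxj1 (chr11:116330704-116335399, minus strand) was at 18.5, 19.4, 16.5, 20.2 and 13.1 CPM in KO replicates 2, 4, 6, 8 and 10. In WT replicates 1, 3, 9 and 11 it was at 19.3, 17.3, 20.4 and 17.8 CPM. The groups overlapped, and KO replicate 10 was the lowest of the 9 libraries. The means were 17.5 ± 2.83 CPM in KO (SD, n = 5) and 18.7 ± 1.42 CPM in WT (SD, n = 4), a log2 difference of -0.10 (95% interval -0.39 to 0.18). The means differed by less than the SD of either group. The unadjusted limma p was 0.44 (adjusted 0.90), with an exact permutation p of 0.524, two-sided. Without KO replicate 10 the log2 difference was -0.004, and with that library as WT 0.10.

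Ccdc153 (chr9:44240676-44247306, plus strand), a coiled-coil gene used as an ependymal marker, behaved otherwise in the same library. Its values were 5.02, 4.88, 4.21, 4.85 and 9.69 CPM in KO replicates 2, 4, 6, 8 and 10, and 5.06, 5.70, 5.20 and 4.41 CPM in WT replicates 1, 3, 9 and 11. KO replicate 10 was highest, while the other 8 libraries lay between 4.21 and 5.70 CPM. The log2 difference was 0.11 (95% interval -0.38 to 0.60, limma adjusted p = 0.95) and turned to -0.10 without KO replicate 10. Tmem212, a transmembrane protein gene and the other ependymal marker, was at 2.70, 2.504, 2.20, 2.03 and 1.58 CPM in KO and 1.90, 1.66, 2 and 1.65 CPM in WT. There KO replicate 10 was the lowest of the 9, and the log2 difference was 0.26 (95% interval -0.22 to 0.74).

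Of the 15 dynein heavy chains, 0 passed the adjusted threshold, 12 had estimates above 0, and all 15 intervals lay within 1 on the log2 scale. Dnah1 was at 67.1, 59.6, 61.5, 56.8 and 55.7 CPM in KO and 61.5, 50.7, 63.8 and 57.4 CPM in WT, with a log2 difference of 0.05 (95% interval -0.14 to 0.23). The range over the 15 genes was -0.20 to 0.33.

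Dnah7a, Dnah7b and Dnah7c encode inner arm heavy chains, and their transcripts are 96.9% to 97.3% identical over 12199 to 12230 bases, so reads shared between them could have been divided among the 3 in counting and the split is uncertain. Dnah7b was at 51.3, 50.5, 47.8, 51.4 and 62.5 CPM in KO replicates 2, 4, 6, 8 and 10, and at 43.8, 44.7, 42.1 and 47.8 CPM in WT replicates 1, 3, 9 and 11. KO replicate 6 and WT replicate 11 met at 47.8 CPM, and the other KO libraries were above every WT library. The log2 difference was 0.24 (SE 0.09, limma adjusted p = 0.66), with an unadjusted p of 0.018, and 0.17 without KO replicate 10. Dnah7a was at 29.6, 33.2, 30.2, 33.5 and 44.7 CPM in KO and between 32.3 and 32.9 CPM in the 4 WT libraries, a difference of 0.06 that turned to -0.04 without KO replicate 10. Dnah7c had a difference of 0.33 (95% interval -0.19 to 0.85).

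Summing the 3 genes removes the uncertain split. The sum was 85.4, 88.04, 81.9, 89.3 and 114 CPM in KO replicates 2, 4, 6, 8 and 10 and 81.7, 80.5, 79.3 and 82.7 CPM in WT replicates 1, 3, 9 and 11. The KO and WT libraries overlapped only through KO replicate 6, and KO replicate 10 was far above the rest. The log2 difference of the sum was 0.17 (SE 0.09, limma unadjusted p = 0.088, adjusted p = 0.80). The two-sided exact permutation p was 0.0317, where the smallest that 5 against 4 libraries allow is 0.0159. The sum was not fitted without KO replicate 10.

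Dnali1, the light intermediate chain of the inner arms, was at 6.83, 8.70, 7.69, 5.004 and 8.26 CPM in KO and 5.79, 5.49, 6.20 and 6.06 CPM in WT. KO replicate 8 was the lowest of the 9 libraries and the other KO libraries were above every WT library. The log2 difference was 0.28 (95% interval -0.08 to 0.65, limma adjusted p = 0.83). Its exons share 43 bases with Gnl2 on the opposite strand.

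Among the 8 radial spoke genes, 0 passed the adjusted threshold and 4 had estimates above 0. Rsph1 (chr17:31255019-31277383, minus strand), a spoke head gene, was at 22.7, 20.03, 17.4, 17.7 and 25.4 CPM in KO replicates 2, 4, 6, 8 and 10. In WT replicates 1, 3, 9 and 11 it was at 14.3, 17.7, 14.6 and 17.6 CPM. The KO range lay higher and overlapped the WT range at 17.4 to 17.7 CPM. The difference was 0.35 (SE 0.13, limma adjusted p = 0.68) and 0.27 without KO replicate 10, with unadjusted p of 0.021 and 0.031.

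Rsph4a (chr10:33905111-33916021, plus strand), a spoke head gene too, was at 16.4, 20.2, 16.1, 18.1 and 19.3 CPM in KO and 19.6, 24.3, 19.5 and 22.2 CPM in WT. All but KO replicate 4 lay under every WT library. The difference was -0.25 (SE 0.11, limma adjusted p = 0.76) and -0.27 without KO replicate 10. Rsph1 and Rsph4a thus had estimates of opposite sign, neither past the adjusted threshold.

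Rsph3a and Rsph3b, genes of the spoke stalk, are 99% identical over 2196 bases and their split is uncertain. Rsph3b ranged over 10.4 to 16.5 CPM across KO mice and 7.504 to 16.4 CPM across WT mice, and Rsph3a over 17.7 to 22.7 CPM and 16.1 to 21.8 CPM. Their sum was 32.7 ± 3.93 CPM in KO (SD, n = 5) and 29.6 ± 2.42 CPM in WT (SD, n = 4). The log2 difference of the sum was 0.14 (SE 0.10), with a two-sided exact permutation p of 0.175.

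The 3 genes of the nexin-dynein regulatory complex all had estimates above 0 and all had their highest value in KO replicate 10. Drc1, the scaffold of the complex, was at 18.8, 20.4, 20.9, 21.1 and 24.7 CPM in KO and 19.3, 20.9, 14.5 and 16.4 CPM in WT, with a log2 difference of 0.26 (95% interval -0.01 to 0.53, limma adjusted p = 0.77). Drc3 had a difference of 0.14, which was 0.02 without KO replicate 10. The interval of Drc3 ran from -0.22 to 0.50.

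The 11 central apparatus genes had a median difference of -0.01, with 5 estimates above 0 and 0 past the adjusted threshold. Cfap54, the highest of them, was at 74.3, 84.6, 77.8, 87.6 and 94.96 CPM in KO and 90.5, 78.0, 78.4 and 76.2 CPM in WT. The ranges overlapped widely, and the difference was 0.05 (95% interval -0.13 to 0.24). Cfap46 was at 46.7 ± 3.58 CPM in KO (SD, n = 5) and 42.8 ± 2.29 CPM in WT (SD, n = 4). Cfap47, on chromosome X, was at 7.86, 10.2, 10.8, 9.85 and 9.35 CPM in KO and 12.1, 13.7, 9.20 and 12.1 CPM in WT. WT replicate 9 was within the KO range and the other WT libraries above it, a difference of -0.29 (95% interval -0.59 to 0.02).

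The 12 genes of the doublet microtubules and of the rulers and tethers on them held the widest differences, from -0.67 to 0.86 on the log2 scale. Tekt2 (chr4:126322121-126325688, minus strand), a filament protein gene of the doublet wall, was at 2.83, 3.69, 3.66, 4.38 and 4.65 CPM in KO replicates 2, 4, 6, 8 and 10. In WT replicates 1, 3, 9 and 11 it was at 8.14, 5.49, 7.90 and 3.86 CPM. WT replicate 11 was within the KO range and the other WT libraries were above it, replicates 1 and 9 well above. The means were 3.84 ± 0.71 CPM in KO (SD, n = 5) and 6.35 ± 2.05 CPM in WT (SD, n = 4). The log2 difference was -0.67 (SE 0.24, limma adjusted p = 0.63), with an exact permutation p of 0.0476. It was -0.74 without KO replicate 10 and -0.66 with it as WT.

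Tekt1, the related tektin, gave no such difference. It was named after its values were seen. Its KO values were 3.22, 6.06, 3.85, 4.85 and 13.1 CPM in replicates 2, 4, 6, 8 and 10, and its WT values 3.80, 5.08, 6 and 3.03 CPM. KO replicate 10 was above all others, which lay between 3.03 and 6.06 CPM. The difference was 0.33 (95% interval -0.45 to 1.10) with it and 0.01 without it.

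Cfap73 (chr5:120628335-120634235, minus strand), part of a complex that docks inner arm dyneins, was at 1.16, 1.32, 0.916, 1.09 and 2.08 CPM in KO and 0.995, 0.518, 0.5 and 0.689 CPM in WT. WT replicate 1 lay above KO replicate 6, and otherwise the KO libraries were higher. The difference was 0.86 (SE 0.33, limma adjusted p = 0.69) and 0.69 without KO replicate 10. Cfap73 had the lowest mean CPM of the set, not corrected for length (1.03), it shares 8.47% of its exon bases with Ddx54 on the opposite strand, and the strandedness of the counting is not given in the sources used here. The authors kept genes with at least 1 CPM in at least 5 samples, and of the 9 libraries Cfap73 reached 1 CPM in 4 KO and 0 WT. The part of this filter in its difference was not tested. Among the other genes of the set, 57 were at 1 CPM or more in all libraries, and Rsph14, Cfap77 and Cfap221 in at least 5.

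Cfap44, which tethers the inner arm dyneins to the doublet, was at 33.7, 30.8, 29.3, 34.9 and 38.3 CPM in KO and 29.4, 29.3, 30 and 27 CPM in WT. Only KO replicate 6 lay within the WT range. The difference was 0.20 (SE 0.09, limma adjusted p = 0.76) and 0.15 without KO replicate 10, where the unadjusted p rose from 0.047 to 0.075. Cfap20, of the inner junction of the doublet, was at 34.6 ± 2.47 CPM in KO (SD, n = 5) and 37.1 ± 1.47 CPM in WT (SD, n = 4), a difference of -0.10 (95% interval -0.27 to 0.07).

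Of the 8 Cfap genes with no role in the list, Cfap36 was at 58.7, 56.7, 66.1, 64.7 and 94.7 CPM in KO and 52.7, 57.3, 62.2 and 62.5 CPM in WT. The groups overlapped apart from KO replicates 6, 8 and 10. Its difference was 0.19 (95% interval -0.10 to 0.48) and 0.07 without KO replicate 10. Cfap97 differed by -0.04 (95% interval -0.21 to 0.13). Cfap99, a low gene, was between 1.05 and 4.06 CPM among KO libraries and between 1.40 and 1.72 CPM among WT libraries, a difference of 0.54 (95% interval -0.21 to 1.28).

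**Figure D3:**
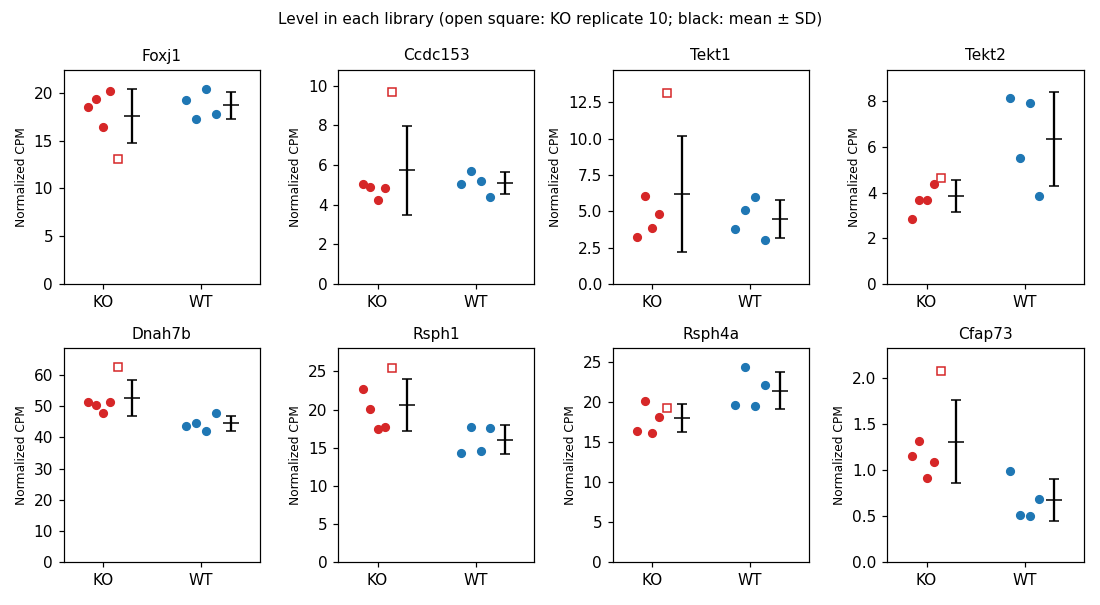
Normalized CPM of 8 genes in each library, KO in red and WT in blue, with KO replicate 10 as an open square and the mean ± SD of each group in black. Foxj1 is lowest in KO replicate 10 (13.1 CPM), where Ccdc153 (9.69 CPM) and Tekt1 (13.1 CPM) are highest, and Tekt2 is above 5 CPM in WT replicates 1, 3 and 9 only.

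KO replicate 10 stood apart for the ciliary genes as it did for the table as a whole. It held the highest of the 9 values in 29 of the 61 genes (47.5%), against 30.1% of all genes, and the lowest in 6 (9.84%), against 28.3% of all genes. Its log2 values deviated from the mean of the other 8 libraries by a median of 0.27 over the 61 genes and by 0.007 over all genes. The summed level of the 61 genes was 1222 CPM in this library and 990 to 1066 CPM in the other 8, where KO and WT overlapped. The genes furthest above the other libraries, on the log2 scale, were Tekt1 by 1.57, Cfap99 by 1.19, Cfap73 by 1.19 and Cfap45, a protein of the doublet lumen, by 1.07. These 4 exceeded a deviation of 1, as did 2.16% of all genes. The library was above the mean of the other 8 in 41 of the 61 genes, against 50.7% of all genes, so it was not higher in all genes of the set. Furthest below were Foxj1 (-0.50), Rsph14 (-0.42), Cfap97d2 (-0.37) and Tmem212 (-0.36). Its depth and its conflicting labels move with these values, and their part was not tested.

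**Figure D4:**
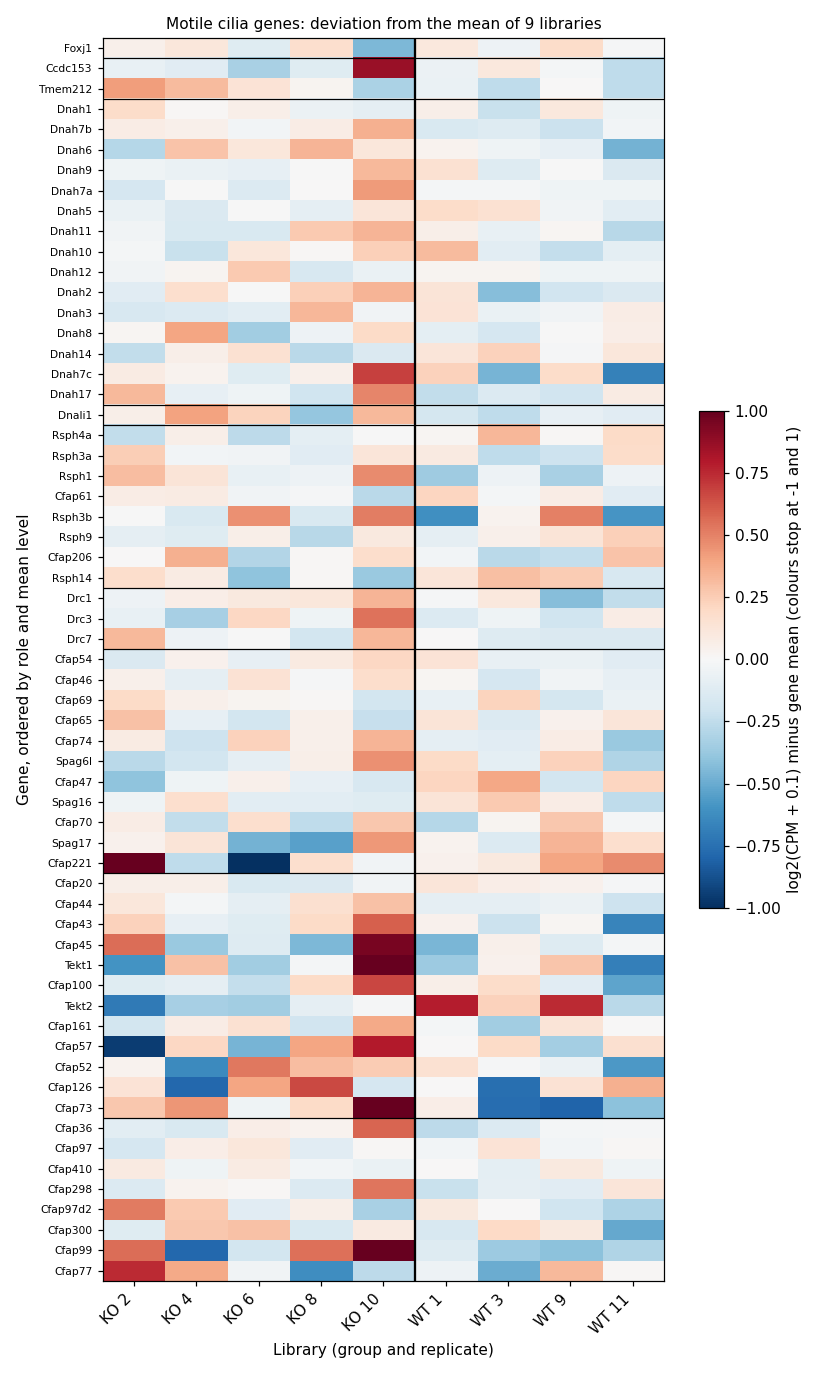
Log2(CPM + 0.1) of each gene minus its mean over the 9 libraries, with genes ordered by role and mean level and colours stopping at -1 and 1. The column of KO replicate 10 is red for most genes and blue for others, Foxj1, Rsph14, Cfap97d2 and Tmem212 among them, and every other column mixes both colours too.

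Apart from that library, the correlations between the 61 genes were low. The median within-group SD was 0.22 on the log2 scale with all libraries (0.18 over all genes) and 0.18 without KO replicate 10 (0.13 over all genes). The median correlation between pairs of the 61 genes, with group means removed, was 0.09 over 9 libraries and 0.01 over the 8 without KO replicate 10, and about -0.001 over all genes in both. The variance between libraries was, at the median, 2.22 times that estimated for read counting with all libraries (2.97 over all genes). Without KO replicate 10 it was 1.35 times (1.73 over all genes). Counting noise lowers correlations, so low ones cannot show how strongly the genes vary together. These libraries share their depth and scaling across genes, so the values are descriptions. WT replicate 11 held the lowest value in 12 of the 61 genes (19.7%), against 8.79% of all genes, and had the lowest summed level.

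**Figure D5:**
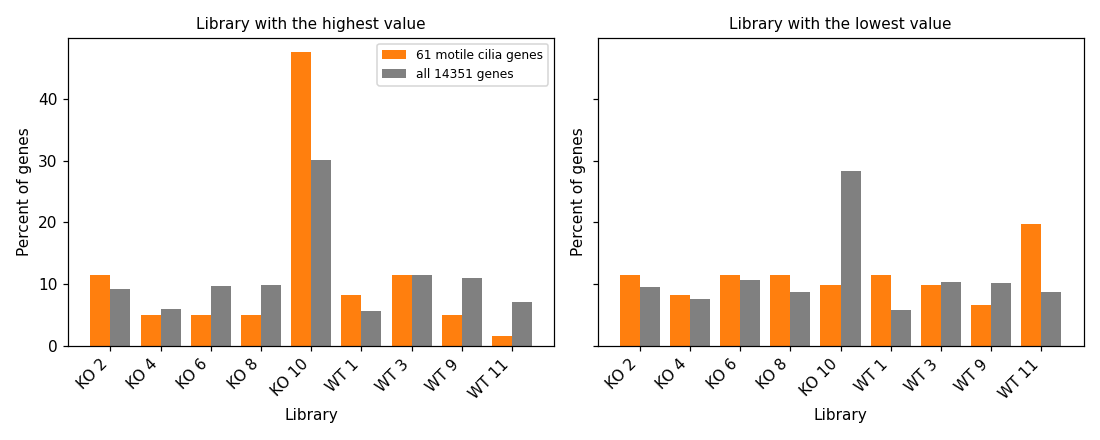
Share of genes whose highest value (left) and lowest value (right) among the 9 libraries fell in each library, for the 61 ciliary genes in orange and all 14351 genes in grey. KO replicate 10 holds the highest value in 47.5% of the ciliary genes and 30.1% of all genes, and the lowest in 9.84% and 28.3%.

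Other genes of the cilium were counted in the same fit from lists written from general knowledge. Of 54 measured genes for other axoneme proteins and for the cytoplasmic assembly of dynein arms, 0 passed the adjusted threshold (0.286% of all genes did). Only 1 had an unadjusted p under 0.05 (6.5% of all genes did), Dnajb13, a spoke protein gene, with a difference of 0.51. The median difference of the 54 genes was 0.07, and 0.01 without KO replicate 10, which held the highest value in 28 of the 54. The summed level was 812 CPM in that library and 685 to 741 CPM in the other 8, and Dnal1, a dynein light chain gene, had the highest mean at 128 CPM, not corrected for length.

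Of 21 measured genes that act in the transcription programme of multiciliated cells, Foxj1 left out, 0 passed the adjusted threshold. Fank1 had a difference of 0.53 and Rfx4, an RFX factor gene, of -0.23, each with an unadjusted p under 0.05 (6.5% of all genes) and libraries that did not overlap (3.41% of all genes). The summed level of this list was lowest in KO replicate 10, at 892 CPM against 959 to 997 CPM in the others, the opposite order to the axoneme genes. Rfx3, a partner of Foxj1, differed by -0.06 (95% interval -0.22 to 0.10) and Tubb4b, a tubulin of cilia and other microtubules, by 0.06 (95% interval -0.13 to 0.25).

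The 55 genes for intraflagellar transport and the primary cilium, which most cells of the brain express, had a median difference of 0.03 and 0 past the adjusted threshold. Ift80, a transport complex gene, had a difference of -0.23 and an unadjusted p under 0.05 (6.5% of all genes). KO replicate 10 summed to 2697 CPM over this list and the other libraries to 2243 to 2367 CPM. Kifap3, with the highest mean CPM of the list (277), differed by -0.0004.

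The 25 ependymal genes outside the axoneme had a median difference of 0.02, with 0 past the adjusted threshold. This list is not of ependymal cells alone: Aqp4 is in the astrocyte list too, and Calml4 in the choroid plexus list. Acta2, an actin gene that smooth muscle expresses strongly as well, had an unadjusted p under 0.05 (6.5% of all genes) and a difference of 1.11. Nnat, with the highest mean CPM of the list (485), differed by -0.07. KO replicate 10 had the lowest sum for this list, 1692 CPM against 1716 to 2030 CPM in the other 8. Gene by gene it was not low, with the highest value in 9 of the 25 and a median deviation from the other libraries of 0.14.

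Tanycytes, which line the floor of the third ventricle and largely lack motile tufts, were represented by 22 measured genes with a median of -0.04. Cd59a, which encodes an inhibitor of complement, passed the threshold (log2 difference 0.9995, limma adjusted p = 0.0296), at 20.9 ± 1.88 CPM in KO (SD, n = 5) and 10.7 ± 3.16 CPM in WT (SD, n = 4). Cd59a was the only gene of the 13 lists to do so, where 0.286% of all genes did. The call was lost without any 1 of KO replicates 2, 4, 6 and 8 or WT replicates 1, 3 and 11, without an intensity trend and with replicate 10 as WT. By the unadjusted p, under 0.05 in 6.5% of all genes, 3 more were named. Nes, an intermediate filament gene of progenitors, had a difference of 0.55, Frzb, a secreted Wnt antagonist, of 0.43 and Fndc3c1 of -1.06, none of them past the adjusted threshold. Choroid plexus genes, of another ciliated epithelium, had 11 of 20 genes measured, 0 past the threshold, 1 with an unadjusted p under 0.05 (Clic6, a relative of Clic1, 0.32) and a summed level of 121 to 156 CPM across the KO libraries and 128 to 150.1 CPM across the WT libraries.

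Lists for other cells and regions gave 0 genes past the threshold. At an unadjusted p under 0.05, where 3.07% of all genes had lower and 3.44% higher estimates in KO, 2 of 16 astrocyte (Cldn10 and Agt), 1 of 12 oligodendrocyte (Mbp, a myelin gene) and 1 of 12 neuron genes (Slc17a6, a glutamate transporter gene) had lower estimates in KO, 2 of 12 endothelial genes (Slco1a4 and Abcb1a, both transporters) and 1 of 8 thalamus genes (Rgs16) had higher ones, and 0 of 12 microglia and 0 of 10 striatum genes passed it. The thalamus genes summed to 588 CPM in KO replicate 10 and to 502 to 533 CPM in the other 8 libraries, but that library was highest in only 1 of the 8 genes, Calb2 (296 CPM), and its median deviation over them was -0.29. Their part in the ciliary values of that library was not tested.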

How the data were processed

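RNA of mouse hypothalamus was sequenced in 9 libraries. The authors trimmed reads with Trimmomatic 0.38, aligned them to GRCm38.p6 with STAR 2.5.1a, estimated gene counts with RSEM 1.3.0, kept genes with at least 1 CPM in at least 5 samples, scaled with edgeR's TMM method and deposited the signal used here, normalized CPM. Versions are from the submitters' processing notes. The authors' table of fold changes, p-values and other statistics of their limma-voom comparison was used for gene symbols only (149 genes had none). There was 1 column that matched no sample and was not used.

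Values were taken as log2(CPM + 0.1), which understates changes of low genes, and limma 3.58.1 (R 4.3.3) was run on all genes (intensity trend, condition as the only term, Benjamini-Hochberg over 14351 genes, threshold 0.05). The design assumed CPM, and because column sums exceeded 1 M in some libraries the values were treated as a signal with the same test. Low values (up to 2.5 CPM) were whole multiples of 1 read, within 0.03 reads, for 81.3% to 86.5% of values, so depths are approximate. Exact permutation tests used scipy 1.17.1. Copies were found with blastn 2.17.0 (an alignment of 95% identity or more that covers 30% or more of the shorter one). The fit was tested on simulated data.

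The members and lists were chosen with earlier results of these data known. Named members were Foxj1, Ccdc153, those with an unadjusted p under 0.05, the 2 highest and the 1 with the smallest p in each role, and near-identical copies. From other lists, the gene with the highest mean CPM and those past the threshold were named. Tekt1, Cfap45, Cfap221, Cfap410, Rsph14, Cfap97d2, Rfx3 and list genes with an unadjusted p under 0.05 were named after their values were seen. Alternatives were other pseudocounts, filters, scalings, variance models, sample weights, replicate 10 as WT or left out, and each other replicate left out.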

Additional observations from a re-analysis of the deposited data

Results flagged for a closer look

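In 6 of the 48 groups of values examined (24 genes, each in the KO and in the WT libraries), 1 library stood out. It lay further from the others than Dixon's 95% critical value allows. Independent groups would give about 2.4 such flags by chance. These groups share the same libraries, and some of the genes were named by their p-values in these data. The 2.4 is therefore no measure of chance here. In 5 of the 6 the library was KO replicate 10. The same count was not made over all genes, where this library held the highest value in 30.1% and the lowest in 28.3%. Over the ciliary genes it held the highest value in 47.5% and the lowest in 9.84%. Whether the flags are particular to the ciliary genes was not tested. Ccdc153 was at 9.69 CPM in KO replicate 10, while the other KO libraries lay at 4.21 to 5.02 CPM. Cfap36 was at 94.7 CPM, against 56.7 to 66.1 CPM. Dnah7a was at 44.7 CPM, against 29.6 to 33.5 CPM, Dnah7b at 62.5 CPM, against 47.8 to 51.4 CPM, and Dnah7c at 6.86 CPM, against 3.87 to 4.48 CPM. The 3 Dnah7 genes are near-identical copies and may share reads, so they may not be separate observations. The sixth was Cfap54 in WT replicate 1, at 90.5 CPM against 76.2 to 78.4 CPM in the other WT libraries.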

How the results depend on the processing

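The count of ciliary genes past the adjusted threshold was 0 under every alternative run, an adjusted p of 0.1 included. Over all genes the count was 41, and it moved to 135 with sample weights, to 5 with replicate 10 as WT, and ranged from 18 (without WT replicate 1) to 87 (without KO replicate 10) when a replicate was left out. Over the other gene lists the count of 1 moved to 0 without an intensity trend and with replicate 10 as WT, to 2 with sample weights, and ranged from 0 to 2 when a replicate was left out. With replicate 10 as WT, the median difference fell from 0.10 to 0.0088 for the 61 genes and from 0.07 to -0.052 for the other axoneme genes, and the estimates of Foxj1 (0.10), Ccdc153 (-0.28), Cfap36 (-0.069), Cfap54 (-0.042), Dnah7a (-0.14) and Drc3 (-0.11) reversed. With sample weights those of Ccdc153 (-0.054), Cfap54 (-0.022) and Dnah7a (-0.029) reversed, without KO replicate 10 those of Ccdc153 (-0.10) and Dnah7a (-0.044), and without WT replicate 3 that of Dnah1 (-0.020, in a range up to 0.090). The estimates of Foxj1 ranged from -0.16 to -0.004 and those of Ccdc153 from -0.10 to 0.20 with a replicate left out. The cause was not tested. No paired analysis was run. KO and WT libraries share no replicate number, and the litter of each mouse was not used.

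With 5 and 4 libraries, and 6 genes under 10 estimated reads in a library, differences under about 0.33 on the log2 scale were within the interval of a typical member. Intervals are for the difference between the group means. They were reckoned from the variance between these libraries, as moderated by limma.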
